A study of Mus musculus with 14 samples.

Results

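The involution and STAT3 pathway genes examined here are *Stat3*, *Lif*, *Lifr*, *Osmr*, *Il6st*, *Igfbp5*, *Tgfb3*, *Clu*, *Bcl2l1* and *Bax*. They were chosen by name for their role in mammary involution, and all 10 were listed among 20550 genes in the RNA-seq data of lactating mammary tissue. The question was how silent this gene set is at day 10 of lactation (L10). Total RNA came from L10 mammary glands labelled WT_wTbrg4, replicates 1 and 2, taken here as 2 mice. These mice are heterozygous. One allele is wt, and in the other a CRISPR-Cas9 deletion on a C57BL/6 background fuses the *Wap* super-enhancer, promoter and transcriptional start site to the body of *Tbrg4*, a gene for a mitochondrial RNA-binding protein. Both mice carry the deletion, and neither their age nor the number of founders is given in the sources used here. The other 12 of the 14 samples are ChIP-seq and were not analysed here. No RNA sample of WT tissue or of involuting tissue was analysed, so a level can only be placed among the other genes of the same mouse. With 1 group of 2 mice, an exact two-sided sign-flip test cannot give a p below 0.5, so values are given per mouse and no test was made.

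When suckling stops, milk stasis starts involution, in which the secretory epithelium dies and the gland is remodelled. The stretched epithelium releases LIF, a cytokine of the IL-6 family that binds LIFR paired with gp130, the product of *Il6st*. The receptor-bound JAK kinases then phosphorylate STAT3, which enters the nucleus and switches on genes of cell death and of the acute-phase response. Oncostatin M acts through OSMR and the same gp130 chain in the later phase. During lactation the dominant signal is instead prolactin acting through STAT5. STAT3 is controlled mostly by phosphorylation, which RNA levels do not measure.

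Values are FPKM, read counts per kilobase of exon or of intron scaled to the library, so levels can be compared between genes. RNA of most of these genes was detected at L10. The trigger, *Lif*, was at the detection limit, whereas *Lifr*, *Il6st*, *Osmr*, *Stat3* itself and the genes that involution is known to raise were all detected. An exon FPKM of at least 1 in both mice was reached by 9 of the 10 genes, compared with 45.6% of the 20515 genes with a usable symbol. *Stat3*, *Lifr*, *Il6st*, *Tgfb3* and *Clu* were at 10 or more in both mice, 5 of 10 genes, against 13% of all genes. Averaged over both mice, the median exon level was 10.8 FPKM over the 10 genes and 0.75 FPKM over all genes. The set was chosen for a known role in this tissue, so its distance from all listed genes, many of which belong to other tissues, describes the levels and says nothing particular to involution.

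**Figure D1:**
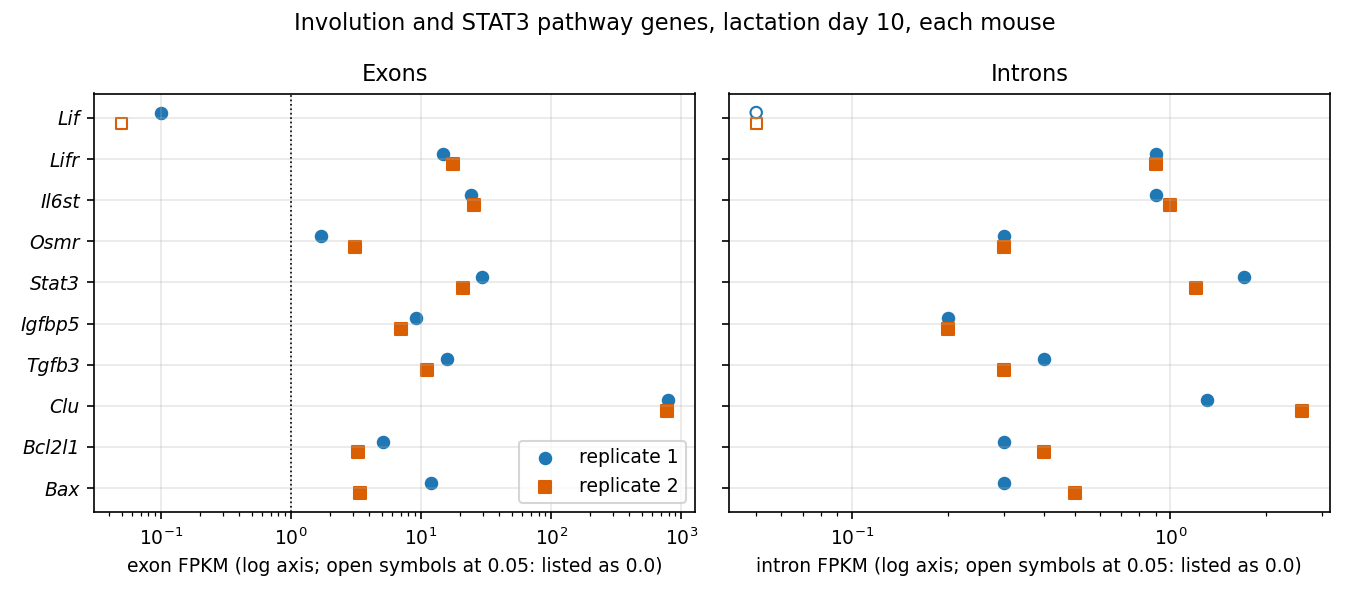
Exon FPKM (left) and intron FPKM (right) of the 10 genes on log axes, with circles for replicate 1 and squares for replicate 2. Open symbols at 0.05 stand for values listed as 0.0, and the dotted line marks 1 FPKM. *Clu* sits near 785 exon FPKM and *Lif* at 0.1 and 0.0, while the other 8 genes lie between 1.7 and 29.2.

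By mean exon level the order was *Clu*, *Stat3*, *Il6st*, *Lifr*, *Tgfb3*, *Igfbp5*, *Bax*, *Bcl2l1*, *Osmr* and *Lif*. The ranges of the 2 mice overlapped between the neighbours *Stat3* and *Il6st*, *Lifr* and *Tgfb3*, *Igfbp5* and *Bax*, and *Bax* and *Bcl2l1*. Within each mouse, *Bax* was above *Bcl2l1* both times, while the order of the other overlapping pairs turned between the mice. The ranges were apart at the other 5 steps of the order. The 10 genes together held 902.8 FPKM in replicate 1 and 871.8 FPKM in replicate 2, most of it *Clu*. Without *Clu* the sums were 111.7 and 92.1 FPKM.

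The ligand *Lif* lies on chromosome 11 (4257568 to 4272514, plus strand) of GRCm38. Exon reads gave 0.1 FPKM in replicate 1 and 0.0 in replicate 2, and its introns were listed at 0.0 in both mice. The steps between low FPKM values put 1 read on the 4339 bp of *Lif* exons at about 0.024 FPKM in replicate 1 and 0.046 FPKM in replicate 2. With rounding to 1 decimal, the values stand for about 4 reads in replicate 1 and 0 or 1 read in replicate 2. Introns listed at 0.0 can likewise hold a few reads. *Lif* RNA was therefore at the detection limit at this depth, which does not show that it was absent. The level ranked above 35.4% of genes in replicate 1 and above 17.1% in replicate 2. Set against *Lifr*, the exon ratio of *Lif* was 0.0068 (replicate 1) and 0 (replicate 2). A value near 0 in these files is not always a silent gene. *Gapdh*, a glycolytic gene used by all cells, was listed at 0.1 and 0.3 exon FPKM, below its own introns at 0.7 and 0.9. *Acta2*, which encodes smooth muscle actin of the myoepithelium, was listed at 0 in both mice. No second place in the genome matched the coding sequence of *Lif* over 50% of its length at 95% identity, and the same held for the other 9 genes.

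The other cytokines of the family were as low, except *Ctf1*. Of the 8 related cytokine genes, *Ctf1* (cardiotrophin 1) alone reached 1 FPKM in both mice, with 1.0 and 1.8. *Il11* was listed at 0.1 and 0.0. *Il6*, *Osm*, *Cntf*, *Clcf1*, *Il27* and *Il31* were listed at 0 exon FPKM in both mice, which includes the ligand of OSMR. The median of the list was 0 FPKM, compared with 0.75 FPKM over all genes.

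The 3 receptor chains among the 10 genes were detected. *Il6st* (chromosome 13, 112464070 to 112506860, plus strand) encodes gp130, which transduces the signals of LIF and oncostatin M. *Il6st* had 24.2 exon FPKM in replicate 1 and 25.6 in replicate 2. Its mean of 24.9 ± 0.99 (SD, n = 2) was above 94.3% of all genes. *Lifr* (chromosome 15, 7129572 to 7197489, plus strand), the ligand-binding partner for LIF, had 14.7 and 17.6 exon FPKM, averaging 16.2 ± 2.05 (SD, n = 2). *Osmr* (chromosome 15, 6813577 to 6874313, minus strand), the partner chain for oncostatin M, had 1.7 and 3.1 exon FPKM, averaging 2.4 ± 0.99 (SD, n = 2). In both mice the order was *Il6st*, *Lifr*, *Osmr*, and the values of the 3 chains did not overlap. *Il6st* exceeded *Lifr* by 1.65-fold and 1.45-fold, and *Lifr* exceeded *Osmr* by 8.65-fold and 5.68-fold. Among the 8 receptor chains of the family, *Il6ra*, which binds IL-6, stood between *Il6st* and *Lifr* by its mean, with 17.0 and 18.0 FPKM. *Cntfr* and *Il27ra* were at 0.1 FPKM in both mice and *Il31ra* at 0.1 and 0.3, as low as *Lif*. These 3 receptors were named after their values were seen. Of the receptor and kinase list, 5 of 9 genes reached 1 FPKM in both mice, against 45.6% of all genes, and the median was 3.25 FPKM, against 0.75 over all genes. *Jak1*, the main kinase on gp130, had 31.2 and 35.1 FPKM, and *Tyk2*, a related kinase, had 4.2 and 2.3 FPKM.

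*Stat3* lies on chromosome 11 (100886806 to 100939540, minus strand), 1636 bp from the end of *Stat5a*. Exon levels of 29.2 FPKM (replicate 1) and 20.9 FPKM (replicate 2) were measured, averaging 25.1 ± 5.87 (SD, n = 2). These levels ranked 997 and 1391 among the 20515 genes. *Stat5a*, which carries the prolactin signal, had 21.0 FPKM in both mice, and *Stat5b* had 14.1 and 12.6 FPKM. The ratio of *Stat3* to *Stat5a* was 1.39 in replicate 1 and 0.995 in replicate 2, averaging 1.19 ± 0.279 (SD, n = 2), so their RNA levels did not differ beyond the spread between the mice. *Stat3* was above *Stat5b* in both mice, by 2.07-fold and 1.66-fold. Among the 7 STAT genes *Stat3* had rank 1 in replicate 1 and rank 2 in replicate 2, followed by *Stat6*, the STAT of IL-4 signaling, with 18.8 and 18.1 FPKM. Of the other 6 STAT genes, 5 reached 1 FPKM in both mice (45.6% of all genes did), with a list median of 10.1 FPKM.

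The genes whose exon and intron values over both mice lay nearest to those of *Stat3* were *Coro1b*, *Naxd*, *Rnf149*, *Ifi35* and *Mfhas1*. Likeness was the Euclidean distance over 4 values on the log2(FPKM + 0.1) scale, 0.244 for *Coro1b* and 0.307 for *Mfhas1*. All 5 had the higher exon value in replicate 1, for example 34.2 and 20.4 FPKM for *Coro1b*.

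Most genes listed as feedback or modulators of STAT3 were detected. Of 12 feedback and modulator genes, 10 reached 1 FPKM in both mice, against 45.6% of all genes, and 0 reached 10, against 13% of all genes. Their median was 4.68 FPKM, against 0.75 over all genes. *Socs3*, the inhibitor that STAT3 induces and that blocks gp130, had 3.4 FPKM in replicate 1 and 1.1 in replicate 2. *Socs2* and *Cish*, inhibitors induced by STAT5, had 8.3 and 16.4 FPKM and 8.6 and 8.5 FPKM. *Socs3* lay below both in each mouse.

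The promoters of *Lif*, *Stat3* and *Il6st* are shown because *Lif* was near 0 while the other 2 were the highest of the ligand, receptor and STAT genes among the 10. The 100 bases before each start come from RefSeq on GRCm38.p6, written 5′ to 3′ on the strand of the gene, and capitals mark CCAAT and GGGCGG on either strand (CCAAT box and GC box).
Lif: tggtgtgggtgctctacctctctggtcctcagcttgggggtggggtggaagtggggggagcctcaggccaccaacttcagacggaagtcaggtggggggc
Stat3: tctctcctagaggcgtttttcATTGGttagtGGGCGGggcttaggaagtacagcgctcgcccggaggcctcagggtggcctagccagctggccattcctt
Il6st: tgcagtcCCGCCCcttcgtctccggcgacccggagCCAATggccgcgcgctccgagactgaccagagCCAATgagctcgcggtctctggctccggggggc
These stretches are chr11:4257468-4257567, chr11:100939541-100939640 and chr13:112463970-112464069. The *Lif* stretch holds 1 CpG and neither motif, the *Stat3* stretch holds 5 CpG and the *Il6st* stretch 12 CpG, each with both motifs. Over the same 100 bases of all 32851 promoters in the table, CCAAT occurred in 18.9% and GGGCGG in 24.7%. The table holds 11 promoter windows for 8 of the 10 genes, from 250 bases before to 50 after the start, and *Tgfb3* and *Clu* have no entry. In these windows the STAT recognition sequence TTCNNNGAA occurred in 0 of 11, compared with 8.3% of all promoters. GGGCGG occurred in 5 of 11 windows, compared with 35.7% of all, and CCAAT in 3 of 11, compared with 37.4% of all. The windows of *Igfbp5* and *Bcl2l1*, which were detected, held neither motif, like that of *Lif*. The 3 printed promoters were picked by level, so their contrast describes these 3 only. These matches are descriptions of sequence and not measured binding.

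The genes that STAT3 and milk stasis are known to raise differed widely in level. *Clu* (chromosome 14, 65968483 to 65981548, plus strand), which encodes the secreted chaperone clusterin, had 791.1 exon FPKM in replicate 1 and 779.7 in replicate 2, averaging 785 ± 8.06 (SD, n = 2). It ranked 24 and 29 among all genes and was 27.1-fold and 37.3-fold above *Stat3*. *Tgfb3* (chromosome 12, 86056743 to 86079041, minus strand), the growth factor released on milk stasis, had 15.7 and 11.2 exon FPKM, averaging 13.5 ± 3.18 (SD, n = 2). *Igfbp5* (chromosome 1, 72858065 to 72874865, minus strand), which sequesters the survival factor IGF-1, had 9.1 and 7.0 exon FPKM, averaging 8.05 ± 1.48 (SD, n = 2). All 3 genes were above at least 80.5% of all genes in each mouse. The milk protein genes were still far above *Clu*, with *Wap* at 219-fold and 301-fold and *Csn2* at 137-fold and 618-fold its level.

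Against its own family, *Tgfb3* was the TGF-beta isoform with the highest RNA level. *Tgfb1* had 1.2 and 1.0 FPKM and *Tgfb2* had 1.7 and 1.8 FPKM, so *Tgfb3* was 13.1-fold and 11.2-fold above *Tgfb1* and 9.24-fold and 6.22-fold above *Tgfb2*. The receptor *Tgfbr2* had 76.6 and 60.6 FPKM and *Smad3*, a transducer of the signal, had 38.3 and 31.6 FPKM. All 9 genes of the TGF-beta list reached 1 FPKM in both mice (45.6% of all genes did), with a median of 10.7 FPKM. *Igfbp5* did not lead its family. It had rank 4 of 7 in replicate 1 and rank 3 of 7 in replicate 2, below *Igfbp7* (40.8 and 57.7 FPKM) and *Igfbp4* (11.2 and 9.5 FPKM). The ratio of *Igfbp5* to *Igfbp2* was 0.805 and 1.37, so the order of these 2 turned between the mice. Of the 9 genes in the IGF list, 7 reached 1 FPKM in both mice (45.6% of all genes did), with a median of 5.65 FPKM.

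Other genes linked to STAT3 in involution differed widely in level too. Of 19 such genes 16 were listed, and 12 of them reached 1 FPKM in both mice (45.6% of all genes did), 7 of them 10 FPKM (13% of all genes), with a median of 8.62 FPKM. *Lcn2*, an acute-phase protein that binds bacterial siderophores, had 293.0 and 455.3 FPKM. Other acute-phase genes of the list, named after their values were seen, were far lower. *Saa1* had 2.1 and 1.3 FPKM, *Saa2* 1.1 and 0.6, *Saa3* 0.7 and 1.0, and *Lrg1* 1.8 and 1.2, while *Hp* had 12.6 and 7.0 FPKM. The lysosomal cathepsins *Ctsb* and *Ctsl*, which take part in epithelial death, had 207.1 and 219.6 FPKM and 107.2 and 78.5 FPKM. *Timp1*, a matrix protease inhibitor, was listed at 0 in both mice. *Cebpd*, *Cebpb* and *Junb* had no row. The files hold 1.26% of the 3970 single-exon genes of RefSeq and 90.4% of the 22208 genes with introns, and these 3 are single-exon genes. The matrix genes of the remodelling phase stood near the share of all genes. Of 14 matrix genes 6 reached 1 FPKM in both mice, against 45.6% of all genes, the list median was 0.9 FPKM, against 0.75 over all genes, and the 2 highest were the inhibitors *Timp2* (41.9 and 38.6 FPKM) and *Timp3* (24.1 and 36.5 FPKM). Among the proteases, named after their values were seen, *Mmp2* had 10.7 and 7.8 FPKM, *Plau* 7.5 and 5.8, *Mmp14* 7.1 and 3.6, and *Mmp3* 4.9 and 5.8. *Mmp7* was listed at 0 in both mice. Over all 9 lists of pathway genes, 62 of the 98 listed genes reached 1 FPKM in both mice (45.6% of all genes did) and 23 reached 10 FPKM (13% of all genes did).

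The BCL2 family sets the threshold for mitochondrial death. *Bcl2l1* (chromosome 2, 152758732 to 152831728, minus strand), which encodes the pro-survival protein BCL-xL, had 5.1 exon FPKM in replicate 1 and 3.3 in replicate 2, averaging 4.2 ± 1.27 (SD, n = 2). Its gene model overlaps *Cox4i2* on the opposite strand by 6306 bp, and whether reads were counted by strand is not given in the sources used here. *Bax* (chromosome 7, 45461695 to 45466898, minus strand), whose product opens pores in the mitochondrial outer membrane, had 11.9 and 3.4 exon FPKM, averaging 7.65 ± 6.01 (SD, n = 2). The ratio of *Bcl2l1* to *Bax* was 0.429 in replicate 1 and 0.971 in replicate 2, averaging 0.7 ± 0.383 (SD, n = 2). *Bax* was the higher of the 2 in both mice, but in replicate 2 the values of 3.4 and 3.3 differed by the last digit of the files.

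*Bcl2l1* was not the main pro-survival gene by RNA level. *Mcl1*, a short-lived survival factor of the same family, had 40.4 and 45.3 FPKM, 7.92-fold and 13.7-fold above *Bcl2l1*. *Bcl2l2* had 25.1 and 13.2 FPKM, 4.92-fold and 4-fold above it, and *Bcl2* had 0.5 FPKM in both mice. *Bcl2l1* had rank 3 of 6 pro-survival genes in each mouse. *Bak1*, the other main pore-forming effector, had 13.5 and 12.3 FPKM and was 1.13-fold and 3.62-fold above *Bax*. Of 15 further BCL2 family genes, 7 reached 1 FPKM in both mice, near the 45.6% of all genes, with a median of 1.6 FPKM.

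Intron reads are commonly read as unspliced RNA and so as a measure of transcription. Intron FPKM was above 0 in both mice for 9 of the 10 genes, compared with 50.4% of all genes, and *Lif* was the exception. Among the ligand, receptor and STAT genes of the 10, *Stat3* had the highest intron value, 1.7 in replicate 1 and 1.2 in replicate 2. *Il6st* had 0.9 and 1.0, *Lifr* had 0.9 in both mice, and *Osmr* had 0.3 in both mice. The introns of *Lifr* and *Osmr* thus stood in the same order as their exons.

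The ratio of exon to intron FPKM had a median of 19.1 over the 9 genes and 14.9 over the 9283 genes with at least 1 exon FPKM and 0.1 intron FPKM on average. *Stat3* was close to the median, with 17.2 and 17.4. *Lifr* had 16.3 and 19.6 and *Il6st* had 26.9 and 25.6. *Osmr* had 5.67 and 10.3, and the ratio of its means, 8, was the lowest of the 9 genes, with 21.3% of all genes below it. In replicate 2 alone *Bax* and *Bcl2l1* were lower. *Bcl2l1* had 17 and 8.25. *Bax* had 39.7 and 6.8, and its ratio of means is the median of 19.1 given above, which thus rests on a gene that differed strongly between the mice. *Tgfb3* with 39.2 and 37.3 and *Igfbp5* with 45.5 and 35 stood above the signaling genes in both mice, although at intron values of 0.2 to 0.4 the rounding to 1 decimal alone allows 27.8 to 61 for *Igfbp5*. *Clu* stood apart. Its introns had 1.3 and 2.6 FPKM, comparable with those of *Stat3*, while its exons were 27.1-fold and 37.3-fold higher, and its ratio of 609 in replicate 1 and 300 in replicate 2 was above 99.7% of genes by its means. The intron level of *Clu* was 2-fold higher in replicate 2, while its exon level was 0.986 times that of replicate 1. If intron values share the library scaling of exon values, the *Clu* introns held about 141 reads in replicate 1 and 148 reads in replicate 2.

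**Figure D2:**
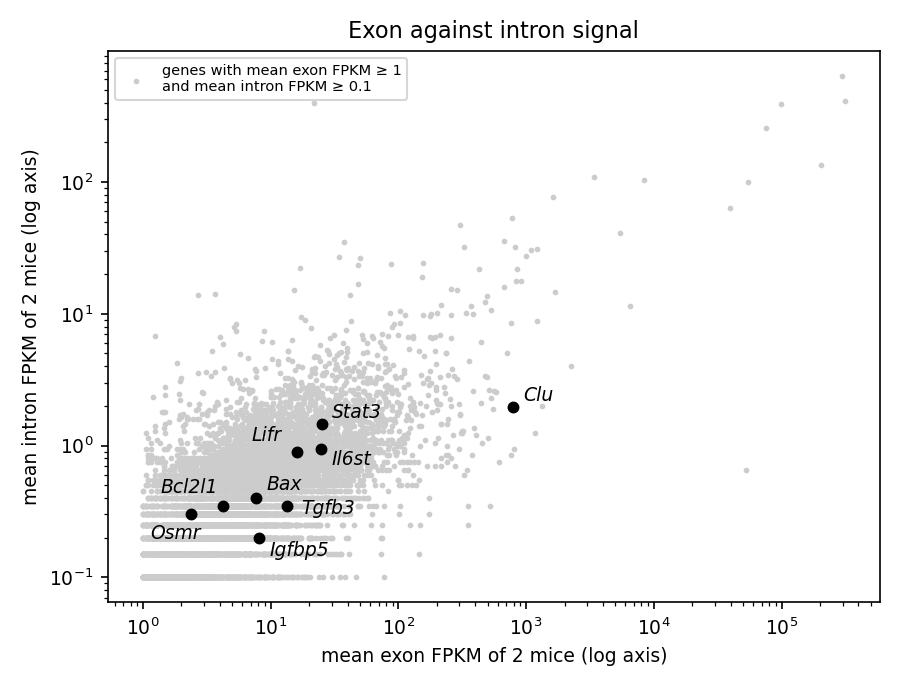
Mean intron FPKM against mean exon FPKM of the 2 mice on log axes, with grey points for 9283 genes and black points for the 9 genes that pass the same limits. *Clu* lies far to the right of *Stat3* at a similar height, 785 and 25.1 exon FPKM at 1.95 and 1.45 intron FPKM.

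The 2 mice differed most in *Bax*. On the log2 scale of FPKM + 1, replicate 2 was lower than replicate 1 by over 2-fold in 1 of 9 genes with a mean of at least 1 FPKM, *Bax* with -1.55, compared with 4.82% of all 9845 such genes. Replicate 2 was higher by over 2-fold in 0 of 9 genes, compared with 1.08% of all. The other 8 genes lay between -0.50 for *Bcl2l1* and 0.60 for *Osmr*, with *Stat3* at -0.46, *Tgfb3* at -0.45, *Igfbp5* at -0.34, *Clu* at -0.02, *Il6st* at 0.08 and *Lifr* at 0.24. Their median with *Bax* was -0.34, compared with -0.08 over all genes. The *Bax* introns moved the other way, from 0.3 to 0.5 FPKM, or about 13 and 11 reads if introns share the library scaling of exons. *Bax* exons span 869 bp, and the steps of low values put its exon FPKM at about 100 reads in replicate 1 and 15 reads in replicate 2.

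Genes rich in GC were lower in replicate 2. Between the log2 difference and exon GC content, Spearman's rho was -0.658 across genes, which are not independent replicates and share the 2 libraries. With genes split into 10 groups of equal size by GC content, the median log2 difference fell from 0.39 in the group with the lowest GC content to -0.74 in the group with the highest. *Bax* exons are 59.0% GC and belong to that last group, and 4.4% of the genes in it lay below *Bax*. Relative to the median of its group *Bax* was at -0.81, which is under 2-fold. *Osmr* (44.6% GC) and *Lifr* (45.3% GC), the most AT-rich of the 10 genes, were the 2 with the largest rise in replicate 2. Relative to their group they stood at 0.44 and 0.08. *Stat3*, *Igfbp5* and *Tgfb3* stood at -0.23, -0.22 and -0.22, *Bcl2l1* at 0.00 and *Clu* at 0.34. The part of GC content in these differences was not tested. Of the pathway lists, 5 further genes were over 2-fold lower in replicate 2 and 1 was higher. They were chosen after their values were seen. *Socs3*, *Pias4*, *Igfbp2*, *Igfbp6* and *Bmf* were lower, with exons of 54.2% to 61.9% GC, and *Igf1* (39.2% GC) was higher, from 4.6 to 14.9 FPKM.

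**Figure D3:**
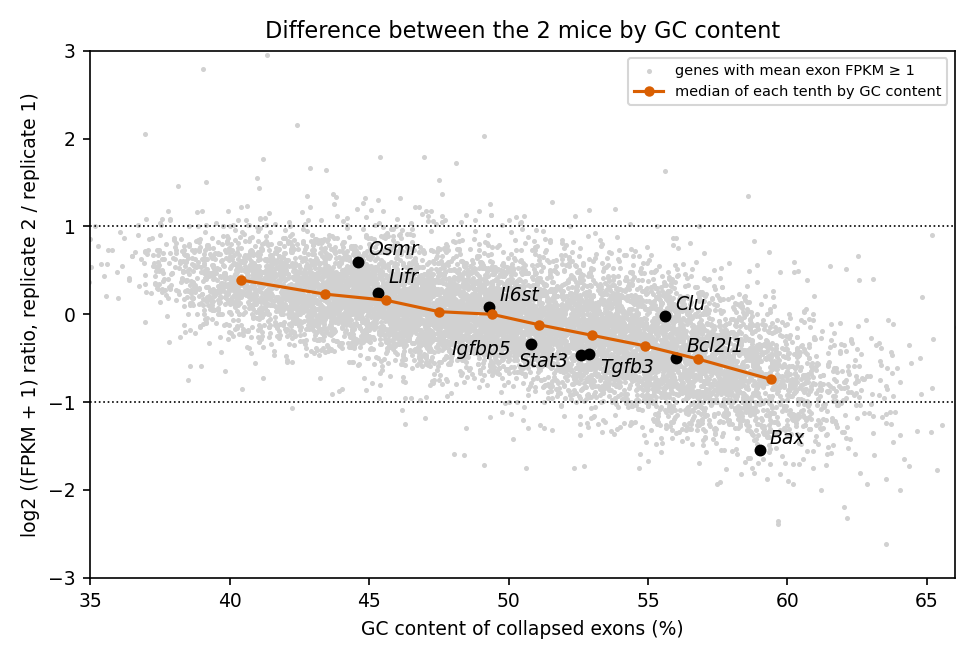
Log2 ratio of exon FPKM + 1, replicate 2 over replicate 1, against the GC content of the exons, with grey points for genes with a mean of at least 1 FPKM and a line through the medians of 10 groups by GC content. Dotted lines mark a 2-fold difference, and genes beyond the axis limits are not drawn. *Bax* at -1.55 lies below the lower dotted line, and the other 8 genes lie between the lines.

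The milk gene levels were those of lactating tissue, while the lactation day and genotype of the label were not checked by RNA values. The 7 secretory luminal markers summed to 290439 FPKM in replicate 1 and 725365 FPKM in replicate 2, led by *Csn2* and *Wap*, and *Tbrg4* had 314.7 and 291.5 FPKM. The 10 highest genes held 79.5% and 90.6% of the summed exon FPKM of 852961 and 1788119, and all other genes summed to 174946 and 168597. By the steps of low values, 1 read was worth 1.9 times as much FPKM in replicate 2. The library sizes behind this ratio are not given in the sources used here. Other cells of the gland were present, and the 10 genes are not particular to epithelium. The 7 macrophage markers all reached 1 FPKM in both mice and summed to 102.2 and 60.2, the 6 fibroblast markers all did and summed to 172.8 and 165.8, and the adipocyte markers summed to 1315.5 and 1144.8. Of the endothelial markers 5 of 6 did, with sums of 53.3 and 46.5, and of the myoepithelial markers 5 of 7, with sums of 153.6 and 98.8. Neutrophil markers (0 of 7, sums of 1.5 and 3.2, *Ly6g*, *Mpo*, *Elane* and *Camp* at 0) and lymphocyte markers (0 of 7, sums of 0.8 and 1.5) were near 0. The lymphocyte list leaves out *Jchain*, a gene of plasma cells, which had 107.4 and 89.3 FPKM. In such bulk tissue, fewer cells of a type and less RNA per cell cannot be told apart.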

How the data were processed

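Total RNA-seq of 2 Wap-Tbrg4 heterozygous mice (L10) was used. The authors aligned reads to mm10 (STAR) and counted them with HTSeq on the merged exons of each gene in the UCSC annotation and on the remaining introns. DESeq2 was their source of FPKM, per the labels and the methods. Tool versions and the handling of multiply mapped reads are not given in the sources used here. The deposited FPKM, rounded to 1 decimal, were used without rescaling, and rows without a usable symbol (35) were left out. Counts are not analysed here. The value of 1 read was estimated from the spacing of FPKM × exon length among genes with 1 transcript of 0.3 to 0.6 kb, a choice made after the data were seen. It was 0.104 FPKM kb in replicate 1 and 0.197 in replicate 2, where 92.1% of 38 and 91.2% of 34 low values lay within 0.25 reads of a whole number. The read value was picked to bring these same values near whole numbers, so these shares do not test it. Read numbers derived from it are approximate, since lengths are those of RefSeq and not of the authors' annotation. For introns the value found on exons was used, which assumes the same library scaling for both and was not tested.

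Gene positions, lengths and GC content came from curated RefSeq transcripts on GRCm38 (mm10), with lengths of collapsed exons. Levels are given per mouse and as mean ± SD. Mice were compared as log2 of (FPKM + 1), replicate 2 over replicate 1, for genes whose mean exon FPKM was 1 or more. The genes, the pathway lists and the marker lists were chosen with earlier results of these data known. Named are the 10 genes, the 2 highest genes of each pathway list, genes paired with one of the 10 by role, the 5 genes nearest to *Stat3*, the absent markers, and *Csn2* and *Wap*. *Gapdh*, *Jchain* and the pathway genes listed at 0 were named after their values were seen. No test was made. Alternative scalings, pseudocounts, filters and means were tried, and each mouse was left out in turn. The GC adjustment and the estimate of the read value were tested on simulated data, where read values of the size found were recovered and the smallest one simulated was missed. Copies were sought with minimap2 2.31. Python 3.11.15, numpy 2.4.6, pandas 2.3.3, scipy 1.17.1 and matplotlib 3.10.9 were used.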

Additional observations from a re-analysis of the deposited data

How the results depend on the processing

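Of 33 alternatives to the counts, ranks and ratios over the 10 genes, 29 left the value within 1 SD or the count within 1.5-fold. Of 50 alternatives to single genes 47 did so. Both numbers include alternatives whose outcome was fixed by construction with 2 mice, so they do not measure stability. The 9 genes at 1 FPKM in both mice were 9 under every scaling tried. Rescaling each mouse to a summed exon FPKM of 1000000 left 3 genes at 10 FPKM in both mice instead of 5, and moved the means of *Lifr*, *Il6st* and *Clu* to 13.5, 21.3 and 682 FPKM. This follows from its construction, since the milk genes took a larger share in replicate 2. Ranked among genes with a mean of at least 1 FPKM, which leaves out *Lif*, the median percentile of the remaining 9 genes was 76.5. Over all 10 genes, ranked among all genes, it was 85.2, so the 2 medians cover unlike sets. With an intron minimum of 0.5 FPKM, 4 genes instead of 9 passed in both mice. After subtracting the median of the genes with like GC content, an alternative chosen after the data were seen, 0 genes instead of 1 (*Bax*) differed by over 2-fold. With 2 mice, leaving 1 out or taking the geometric mean stays within 1 SD by construction and shows no stability. *Bax* alone moved by over 1.5-fold from its mean, to 11.9 without replicate 2 and 3.4 without replicate 1, apart from *Lif* near 0, and with it the *Bcl2l1* to *Bax* ratio of 0.7, to 0.429 and 0.971. Low read numbers limit *Lif*, the *Bax* exons in replicate 2 and the introns of *Igfbp5* and *Bax*. No paired analysis was possible because there is 1 group.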
